A study of Mus musculus with 8 samples.

Results

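Costimulatory and checkpoint genes were read in monocyte-derived dendritic cells (moDCs) sorted from the inflamed central nervous system of mice. The members were the 8 gene symbols Cd40, Cd80, Cd86, Cd274, Pdcd1lg2, Icosl, Cd48 and Havcr2, and all 8 were found among the 12256 genes of the expression table. They were chosen by symbol, as genes of T cell costimulation and of its checkpoints. Each member had at least 30 reads in every library.

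All mice were C57Bl/6 with experimental autoimmune encephalomyelitis (EAE), an autoimmune inflammation of brain and spinal cord raised here with the myelin peptide MOG35-55. The NPC group had received 1000000 neural precursor cells (NPCs) in 10 µL of PBS, and the PBS group 10 µL of PBS alone. The injection was intrathecal, at the peak of disease, which the series text sets at 2 to 4 days after clinical onset and the treatment protocol at 4 days. On day 7 after treatment moDCs were sorted from hindbrain and spinal cord as CD45hiCD11b+Ly6G-Ly6C+CD11cintMHCII+. Each group held 4 libraries, called NPC A to D and PBS 1 to 4, and each library was a separate pool of 4 to 7 mice. The labels name no healthy mice and no age or sex, and the source of the injected cells is not given in the sources used here.

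A T cell that meets its antigen on a dendritic cell reads further signals from that cell's surface. CD80 and CD86 engage CD28, which promotes activation, and CTLA-4, which restrains it. CD40 receives CD40 ligand from helper T cells and licenses the dendritic cell. ICOS ligand sustains effector and follicular T cells through ICOS. PD-L1, encoded by Cd274, and PD-L2, encoded by Pdcd1lg2, inhibit T cells through PD-1. CD48 binds CD2 and CD244 in mice. Tim-3, encoded by Havcr2, is known as a checkpoint receptor of exhausted T cells and is also carried by myeloid cells.

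No member passed the test between NPC and PBS moDCs. Of the 8 genes, 7 had a higher mean in NPC libraries and Cd40 did not, with log2 fold changes from -0.04 to 0.44 and a median of 0.23; the median of all 12256 genes was 0.02. With limma's moderated test and p-values adjusted by the Benjamini-Hochberg method over the whole table, 0 of the 8 passed at 0.05, as did 0 of 12256 genes (0% of the table). None had an unadjusted p under 0.05 either, where 6.00% of all genes were higher and 5.32% lower in NPC libraries at that level. None had groups free of overlap, which 3.53% of all genes showed with NPC libraries higher and 3.25% with NPC libraries lower. A log2 fold change above 0 was found for 52.5% of all genes. In RNA of pooled sorted cells, fewer cells that express a gene and less of its RNA per cell cannot be told apart.

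The intervals bound how large a difference the 8 libraries leave possible. The 95% interval of the fold change excluded a 2-fold difference for 7 of the 8 genes, all but Cd80, and for 79.1% of all genes. A 1.5-fold fall was outside the interval of all 8 genes. A 1.5-fold rise was outside it for Cd40, Cd48, Icosl and Pdcd1lg2. The 1.5-fold bounds belong to the fit of the deposited values over all 8 libraries. Without NPC B the lower limit of Cd80 was -0.64 log2 units, beyond a 1.5-fold fall. After correction for GC content and length the upper limit of Pdcd1lg2 was 0.61 log2 units, beyond a 1.5-fold rise.

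**Figure D1:**
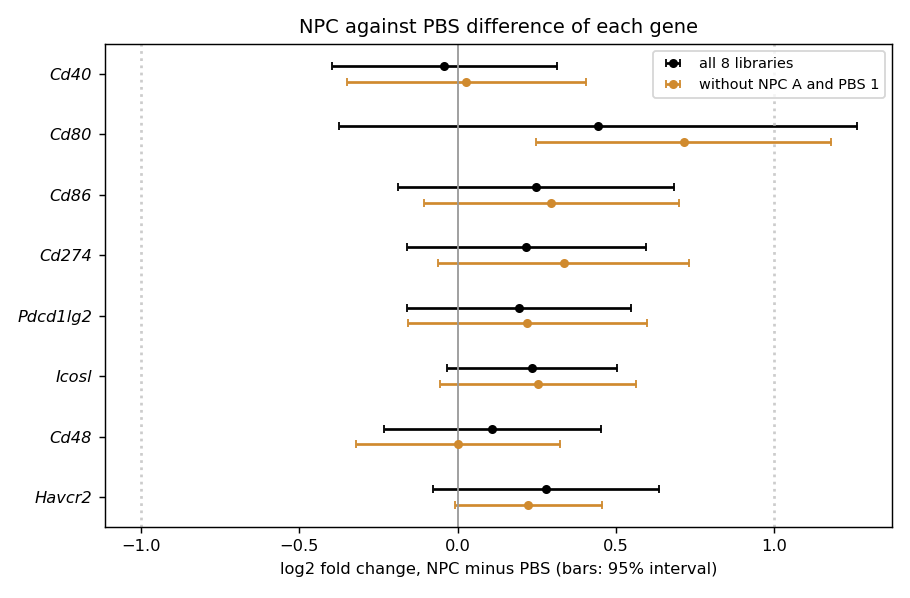
Log2 fold change of each gene, NPC minus PBS, with its 95% interval as bars, over all 8 libraries (black) and without NPC A and PBS 1 (orange), with dotted lines at a 2-fold difference. The black interval of Cd80 runs from -0.37 to 1.26 and is the widest of the 8, and its orange interval lies above 0.

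Levels are log2 normalised expression, that is reads per 1000000 of a scaled library size, on a log2 scale and not divided by gene length. The scaled size was not the number of reads in the table. In units of 1000000 reads it was 9.295 in PBS 3, which held 7702189 reads, and 9.037 in PBS 4, which held 9997184. The NPC libraries held 2653818 to 7003542 reads in the table and the PBS libraries 7702189 to 21068166, so depth differed together with treatment. NPC A and PBS 1 stood apart from the rest. On the first principal component, which held 31.9% of the variance over all genes, their scores were -44.3 and -36.2, against 1.98 to 26.0 for the other 6. A list of 18 immediate-early and heat-shock genes, known for rapid induction by stimuli and stress, averaged 5.38 log2 units in NPC A and 5.54 in PBS 1, against 7.18 to 7.65 in the other 6 libraries. The fold change of each member and the balances of ligand pairs are therefore given with and without NPC A and PBS 1. The genes of the sort were expressed throughout: Ptprc, Itgam, Itgax, H2-Ab1, H2-Aa, Ly6c2 and Ccr2 had log2 fold changes from -0.11 (Ly6c2) to 0.16 (H2-Aa).

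**Figure D2:**
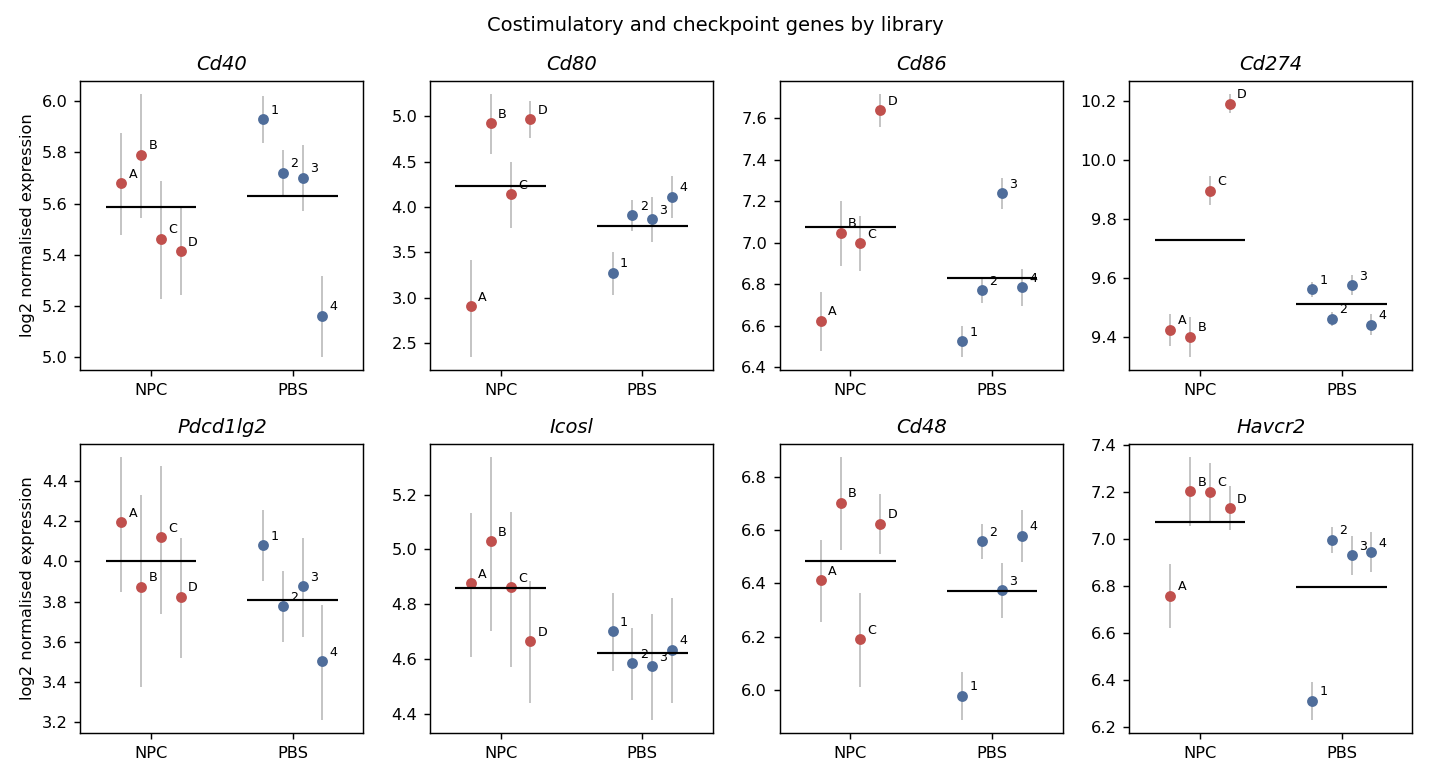
Log2 normalised expression of the 8 genes in each library, NPC A to D in red at the left and PBS 1 to 4 in blue at the right of each panel. Horizontal lines are group means and grey bars 95% Poisson intervals of the reads, which cover counting error only; vertical scales differ between panels. The NPC and PBS ranges overlap in every panel, and NPC A and PBS 1 are the lowest of their groups for Cd80, Cd86 and Havcr2.

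Of the CD28 and CTLA-4 ligands, Cd80 varied more between libraries than any other member. Cd80 (ENSMUSG00000075122.5) lies on chromosome 16 at 38455561 to 38496335, plus strand, in mm10 coordinates of GENCODE vM21. Its level was 2.91, 4.92, 4.14 and 4.97 log2 units in NPC A to D, against 3.28, 3.91, 3.87 and 4.11 in PBS 1 to 4. NPC B, C and D lay above every PBS library while NPC A was the lowest of all 8. The NPC values thus lay on both sides of the PBS range and none inside it. Cd80 averaged 4.23 ± 0.96 in NPC libraries and 3.79 ± 0.36 in PBS libraries (SD, n = 4 each). The log2 fold change was 0.44 (SE 0.38, 95% interval -0.37 to 1.26, limma adjusted p = 0.688). It rested on 30, 77, 63 and 206 reads in NPC A to D and 152, 294, 135 and 156 in PBS 1 to 4. The 95% counting interval of NPC A (2.35 to 3.41) overlapped with that of PBS 1 (3.04 to 3.50) and lay below those of the other 6 libraries.

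Single libraries set the size of the Cd80 difference. Without NPC A the log2 fold change was 0.89 (limma unadjusted p = 0.0031, adjusted p = 0.335). In that fit 789 of 12256 genes were higher in NPC libraries at an unadjusted p under 0.05. Without NPC A and PBS 1 the log2 fold change of Cd80 was 0.71 (SE 0.21, 95% interval 0.25 to 1.18), with a limma unadjusted p of 0.00608 and an adjusted p of 0.473. In that fit 5.32% of all genes were higher in NPC libraries at an unadjusted p under 0.05. Without NPC B it was 0.21 and without NPC D 0.20. Thinning every library to the depth of the shallowest gave 0.73. Cd80 thus kept its sign in each of the 20 alternatives run and missed the adjusted threshold in each.

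Cd86 (ENSMUSG00000022901.13) lies on the minus strand of chromosome 16 at 36603869 to 36666081, 1789 kb from Cd80. Its level was 6.62, 7.05, 7.00 and 7.64 log2 units in NPC A to D, against 6.53, 6.77, 7.24 and 6.79 in PBS 1 to 4. NPC D was the highest of the 8 libraries and PBS 3 the next, and the groups overlapped. Cd86 averaged 7.08 ± 0.42 in NPC libraries and 6.83 ± 0.30 in PBS libraries (SD, n = 4 each), a log2 fold change of 0.25 (SE 0.20, 95% interval -0.19 to 0.68, limma adjusted p = 0.669). With a single library left out the log2 fold change ran from 0.06 without NPC D to 0.40 without NPC A (limma adjusted p = 0.406), and it was 0.15 without PBS 1 and 0.38 without PBS 3. It was 0.30 without NPC A and PBS 1.

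Whether treatment shifted the balance between both CD28 ligands was tested inside each library, where library scaling cancels. Cd86 minus Cd80 was 3.72, 2.13, 2.86 and 2.67 log2 units in NPC A to D, against 3.25, 2.86, 3.37 and 2.67 in PBS 1 to 4. The lowest and the highest of the 8 values were both in the NPC group. The difference averaged 2.84 ± 0.66 in NPC libraries and 3.04 ± 0.33 in PBS libraries (SD, n = 4 each). NPC minus PBS was -0.20, less than the SD of either group, with an exact two-sided permutation p of 0.543 (0.914 after adjustment over 2 pairs). The smallest p that the 70 arrangements allow is 0.0286. Without NPC A and PBS 1, NPC minus PBS was -0.42 (exact two-sided permutation p = 0.2). Without NPC A alone it was -0.49 (exact two-sided permutation p = 0.114). Both rest on fewer arrangements, and without NPC A and PBS 1 no outcome could have given a p under 0.05.

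Cd40, the receptor for help from T cells, had nearly equal means in both groups. Cd40 (ENSMUSG00000017652.16; chromosome 2 at 165055627 to 165072948, plus strand) was at 5.68, 5.79, 5.46 and 5.41 log2 units in NPC A to D, against 5.93, 5.72, 5.70 and 5.16 in PBS 1 to 4. PBS libraries held both the highest and the lowest value. Cd40 averaged 5.59 ± 0.18 in NPC libraries and 5.63 ± 0.33 in PBS libraries (SD, n = 4 each). The log2 fold change was -0.04 (SE 0.16, 95% interval -0.40 to 0.31, limma adjusted p = 0.947), and it ran from -0.20 without PBS 4 to 0.06 without PBS 1. It was 0.03 without NPC A and PBS 1.

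Icosl (ENSMUSG00000000732.9; chromosome 10 at 78069302 to 78083913, plus strand) had the smallest unadjusted p of the 8 genes. Its level was 4.88, 5.03, 4.86 and 4.67 log2 units in NPC A to D, against 4.70, 4.58, 4.57 and 4.63 in PBS 1 to 4. NPC A, B and C lay above all PBS libraries, and NPC D lay between PBS 1 and PBS 4. Icosl averaged 4.86 ± 0.15 in NPC libraries and 4.62 ± 0.06 in PBS libraries (SD, n = 4 each). The log2 fold change was 0.23 (SE 0.12, 95% interval -0.03 to 0.50), with a limma unadjusted p of 0.0802 and an adjusted p of 0.499. In fold terms it was 1.18, with an interval of 0.978 to 1.42. Without NPC A and PBS 1 the log2 fold change was 0.25. With a single library left out it ran from 0.18 without NPC B to 0.30 without NPC D (limma unadjusted p = 0.0364, adjusted p = 0.558). Without NPC D 625 of 12256 genes were higher in NPC libraries at an unadjusted p under 0.05.

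The PD-1 ligands are neighbours on chromosome 19, both on the plus strand, with 22.8 kb between the end of Cd274 (ENSMUSG00000016496.7; 29367455 to 29388095) and the start of Pdcd1lg2 (ENSMUSG00000016498.10; 29410919 to 29471161). Cd274 was at 9.43, 9.40, 9.90 and 10.19 log2 units in NPC A to D, against 9.56, 9.46, 9.58 and 9.44 in PBS 1 to 4. NPC C and NPC D were above, and NPC A and NPC B below, all PBS libraries. Cd274 averaged 9.73 ± 0.38 in NPC libraries and 9.51 ± 0.07 in PBS libraries (SD, n = 4 each), a log2 fold change of 0.22 (SE 0.17, 95% interval -0.16 to 0.60, limma adjusted p = 0.662). With 1730 to 7709 reads in NPC libraries and 6289 to 13815 in PBS libraries, counting error was far smaller than the spread among NPC libraries. With a single library left out the log2 fold change ran from 0.06 without NPC D to 0.33 without NPC B, and it was 0.32 without NPC A. It was 0.34 without NPC A and PBS 1, and also 0.34 with library weights (95% interval 0.02 to 0.65, limma unadjusted p = 0.0406, adjusted p = 0.263). With these weights 1090 of 12256 genes were higher in NPC libraries at an unadjusted p under 0.05, against 735 without weights.

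Pdcd1lg2 was at 4.19, 3.87, 4.12 and 3.82 log2 units in NPC A to D, against 4.08, 3.78, 3.88 and 3.50 in PBS 1 to 4. NPC A was the highest library and PBS 4 the lowest, and the groups overlapped. Pdcd1lg2 averaged 4.00 ± 0.18 in NPC libraries and 3.81 ± 0.24 in PBS libraries (SD, n = 4 each), a log2 fold change of 0.19 (SE 0.16, 95% interval -0.16 to 0.55, limma adjusted p = 0.685). With a single library left out it ran from 0.09 without PBS 4 to 0.28 without PBS 1, and it was 0.13 without NPC A. It was 0.22 without NPC A and PBS 1.

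The balance between the PD-1 ligands inside a library was also tested. Cd274 minus Pdcd1lg2 was 5.23, 5.53, 5.78 and 6.37 log2 units in NPC A to D, against 5.48, 5.69, 5.70 and 5.94 in PBS 1 to 4. The NPC values spanned the PBS values on both sides. The mean was 5.73 ± 0.48 in NPC libraries and 5.70 ± 0.19 in PBS libraries (SD, n = 4 each), a difference of 0.02 (exact two-sided permutation p = 0.914, also after adjustment over 2 pairs). Without NPC A and PBS 1 the difference was 0.12 (exact two-sided permutation p = 0.8), where so few arrangements allow no p under 0.05.

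Havcr2 (ENSMUSG00000020399.14; chromosome 11 at 46454935 to 46481255, plus strand) showed the same library pattern in both groups. Its level was 6.76, 7.21, 7.20 and 7.13 log2 units in NPC A to D, against 6.31, 7.00, 6.93 and 6.95 in PBS 1 to 4. In either group 3 libraries lay close together and the remaining library, NPC A or PBS 1, lay below them, and NPC B, C and D were above every PBS library. Havcr2 averaged 7.07 ± 0.21 in NPC libraries and 6.80 ± 0.33 in PBS libraries (SD, n = 4 each). The log2 fold change was 0.28 (SE 0.16, 95% interval -0.08 to 0.64, limma unadjusted p = 0.114, adjusted p = 0.545). Without NPC A and PBS 1 it was 0.22 (95% interval -0.01 to 0.45, limma adjusted p = 0.504). With a single library left out it ran from 0.12 without PBS 1 (limma adjusted p = 0.822) to 0.38 without NPC A (limma adjusted p = 0.376).

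Cd48 (ENSMUSG00000015355.13; chromosome 1 at 171682009 to 171705258, plus strand) was at 6.41, 6.70, 6.19 and 6.63 log2 units in NPC A to D, against 5.98, 6.56, 6.38 and 6.58 in PBS 1 to 4. PBS 1 was the lowest library, and the other 7 overlapped. Cd48 averaged 6.48 ± 0.23 in NPC libraries and 6.37 ± 0.28 in PBS libraries (SD, n = 4 each), a log2 fold change of 0.11 (SE 0.16, 95% interval -0.23 to 0.45, limma adjusted p = 0.831). With a single library left out it ran from -0.02 without PBS 1 to 0.21 without NPC C, and it was 0.04 without NPC B, 0.06 without NPC D, 0.17 without PBS 2 and 0.18 without PBS 4.

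Several, but not all, members deviated the same way in NPC A and PBS 1. Cd80, Cd86 and Havcr2 were the lowest of their group in both libraries, which is 3 of 8 members (37.5%), where 14.3% of all genes did so. Cd80 in NPC A differed by -1.77 log2 units from the mean of the other NPC libraries, and in PBS 1 by -0.69 from the mean of the other PBS libraries. For Cd86 these differences were -0.60 and -0.41, and for Havcr2 -0.42 and -0.65. Pdcd1lg2 went the other way and was the highest of its group in both, by 0.26 in NPC A and 0.36 in PBS 1, as did 14.4% of all genes. For Cd40 the differences were 0.12 in NPC A and 0.40 in PBS 1, and for Icosl 0.02 and 0.10. For Cd274 they were -0.40 in NPC A and 0.07 in PBS 1, although NPC B (9.40) was lower than NPC A (9.43). For Cd48 they were -0.09 in NPC A and -0.53 in PBS 1, so that of the pair only PBS 1 was the lowest of its group. Fos, whose protein is part of AP-1, had a level of 8.28 in NPC A and 7.95 in PBS 1, against 9.65 to 10.18 in the other 6 libraries. The part of that library pattern in the member values was not tested.

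**Figure D3:**
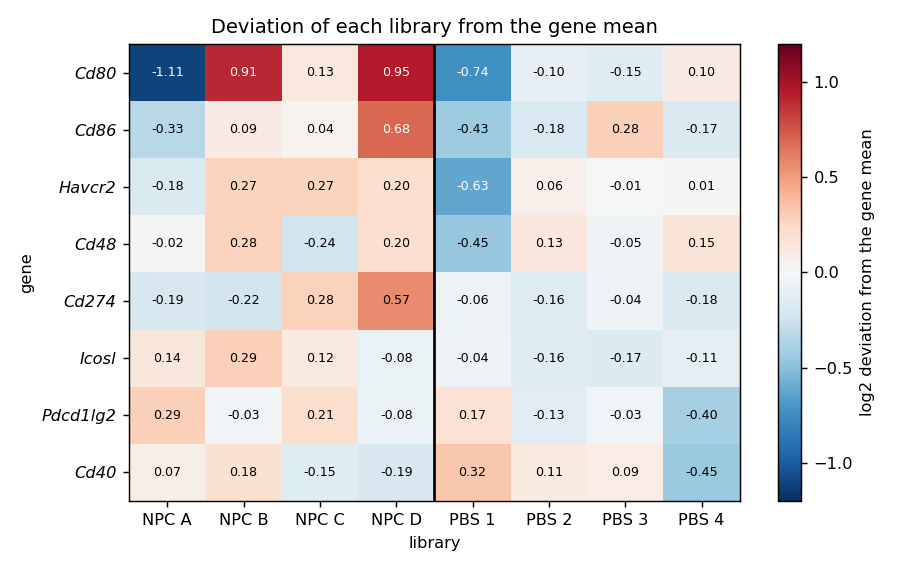
Deviation of each library from the gene's mean over the 8 libraries, in log2 units, with NPC A to D left and PBS 1 to 4 right of the black line; red is above and blue below the mean. Cd80 spans -1.11 in NPC A to 0.95 in NPC D, and the columns of NPC A and PBS 1 are blue for Cd80, Cd86 and Havcr2 and red for Pdcd1lg2 and Cd40.

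With NPC A and PBS 1 left out, 3 libraries remained in each group. The log2 fold change was then above 0 for all 8 genes, with a median of 0.24, although that of Cd48 was 0.00 and that of Cd40 0.03. Cd80, Icosl and Havcr2 then had every NPC library above every PBS library, which is 3 of 8 members, where 8.55% of all genes did so. For Cd80 the closest values were 4.14 in NPC C (counting interval 3.77 to 4.50) and 4.11 in PBS 4 (3.88 to 4.34). For Icosl they were 4.67 in NPC D (4.44 to 4.88) and 4.63 in PBS 4 (4.44 to 4.82). For Havcr2 they were 7.13 in NPC D (7.04 to 7.23) and 7.00 in PBS 2 (6.94 to 7.05). The counting intervals overlapped in each pair, so these separations may rest on counting error. Such margins were not examined for all genes. The smallest limma adjusted p among the 8 without NPC A and PBS 1 was 0.473, for Cd80.

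Promoter sequence is shown for the 3 genes that were lowest or highest in both libraries and have a window with a motif match, since they share or oppose a library pattern. Of the 8 genes, 6 had a window from RefSeq (GRCm38.p6). Cd40 and Cd86 had none, so Cd86, which was also lowest in both libraries, was not searched. The 250 bases before the RefSeq start are printed 5′ to 3′ on the plus strand with motif letters in capitals. Cd80 is at chr16:38458683-38458932, Havcr2 at chr11:46454681-46454930 and Pdcd1lg2 at chr19:29410669-29410918.
Cd80: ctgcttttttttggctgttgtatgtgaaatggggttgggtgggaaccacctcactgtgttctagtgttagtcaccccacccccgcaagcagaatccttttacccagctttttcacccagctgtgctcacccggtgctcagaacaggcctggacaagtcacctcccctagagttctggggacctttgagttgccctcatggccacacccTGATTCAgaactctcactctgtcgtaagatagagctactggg
Havcr2: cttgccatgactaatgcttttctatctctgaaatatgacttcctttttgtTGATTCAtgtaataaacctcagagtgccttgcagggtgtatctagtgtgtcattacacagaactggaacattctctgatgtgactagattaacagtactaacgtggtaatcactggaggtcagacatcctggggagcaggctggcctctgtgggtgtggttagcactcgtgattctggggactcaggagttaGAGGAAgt
Pdcd1lg2: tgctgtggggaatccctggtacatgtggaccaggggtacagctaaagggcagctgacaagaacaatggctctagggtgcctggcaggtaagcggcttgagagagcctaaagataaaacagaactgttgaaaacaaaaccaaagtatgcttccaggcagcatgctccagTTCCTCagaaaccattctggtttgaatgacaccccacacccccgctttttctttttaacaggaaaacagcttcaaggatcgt
In Cd80 the capitals match the AP-1-like letters TGANTCA, where N is any base, beginning 42 bases before the start. This RefSeq start lies 3372 bases downstream of the GENCODE start of Cd80, so the window is inside the annotated gene. In Havcr2 they are TGANTCA, beginning 200 bases before the start, and the PU.1 core GAGGAA, 8 bases before it. In Pdcd1lg2 they are the PU.1 core on the minus strand, 82 bases before the start. Both strands of the 6 windows (250 bases before to 50 after the start) were searched. The AP-1-like letters were in 2 of the 6 members and in 7.81% of all 32851 windows of that length, and the PU.1 core in 2 of 6 and in 28.3%. Both AP-1-like matches read TGATTCA and were found only because the central base was left free, so neither is called an AP-1 site. The STAT letters TTCNNNGAA (8.30% of all windows) were in none of the 6. Neither was an NF-kappaB motif of GGG, any 2 bases, TT, any 1 base and CC (4.79%), nor a paired IRF motif of GAAA, any 2 bases and GAAA (3.44%). Only these exact letters were searched. Other forms of the NF-kappaB motif were not, and may be present in the windows, the printed ones included. A match describes letters in a window and not binding.

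Levels can be set side by side between genes only per length, so the linear normalised value was divided by the exonic length of each gene in kb. Cd274 was by this measure the most abundant of the 8, at 241 ± 65.0 per kb in NPC libraries and 202 ± 9.54 in PBS libraries (SD, n = 4 each), between the percentiles 98.8 and 99.4 of all matched genes over the 8 libraries. Cd48 followed at 75.9 ± 11.8 in NPC libraries and 70.6 ± 12.7 in PBS libraries. Havcr2 was at 49.9 ± 6.88 in NPC libraries and 41.6 ± 8.31 in PBS libraries, and Cd86 at 38.1 ± 11.6 in NPC libraries and 31.6 ± 6.82 in PBS libraries. Inhibitory PD-L1 transcript thus exceeded that of either CD28 ligand in every library.

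The other 4 genes were lower per kb. Cd40 was at 14.2 ± 1.76 in NPC libraries and 14.8 ± 3.10 in PBS libraries, and Pdcd1lg2 at 8.23 ± 1.03 in NPC libraries and 7.22 ± 1.18 in PBS libraries. Icosl was at 6.30 ± 0.644 in NPC libraries and 5.34 ± 0.216 in PBS libraries, and Cd80 at 5.86 ± 3.06 in NPC libraries and 3.82 ± 0.868 in PBS libraries. In this order the ranges over all 8 libraries were apart between Cd274 and Cd48, between Cd86 and Cd40, and between Cd40 and Pdcd1lg2. They overlapped between Cd48 and Havcr2, although Cd48 was the higher in 8 of 8 libraries, and between Havcr2 and Cd86, where Havcr2 was the higher in 7 of 8. They also overlapped between Pdcd1lg2 and Icosl (8 of 8 libraries in that order) and between Icosl and Cd80 (6 of 8). Cd80 moved most in rank, between the percentiles 31.1 and 70.2 of all matched genes.

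Markers of other cell types were read beside the members, since antigen-presenting cells of several kinds and T cells in contact with them carry the same genes. The 6 microglia markers summed to 144, 262, 221 and 247 in linear normalised expression in NPC A to D, against 127, 188, 187 and 223 in PBS 1 to 4, and all 6 had a log2 fold change above 0, also under quantile normalization, equal medians, thinning and correction for GC content and length. The 8 markers of conventional and migratory dendritic cells summed to 70.5, 224, 87.6 and 98.8 in NPC A to D, against 55.5, 105, 104 and 66.6 in PBS 1 to 4, with all 8 above 0, or 7 of 8 after thinning. A log2 fold change above 0 was found for 52.5% of all genes in the table. The microglia and dendritic cell sums were lowest in NPC A and PBS 1 within their groups, as Cd80 was, and the ranges of both lists overlapped between the groups.

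The 12 T cell markers summed to 104, 132, 95.7 and 119 in NPC A to D, against 93.3, 89.0, 77.0 and 86.5 in PBS 1 to 4, so every NPC library was above every PBS library. Of these 12 genes, 10 had a log2 fold change above 0 (9 under quantile normalization, 11 after thinning), and Cd3e and Cd4 had an unadjusted p under 0.05 in limma. Over all genes 52.5% were above 0, and 6.00% were higher in NPC libraries at that unadjusted level. The other lists overlapped between the groups. B cell markers (3 of 5 in the table) summed to 3.81 to 10.8 in NPC libraries and 3.84 to 6.81 in PBS libraries, and NK cell markers (3 of 5) to 14.9 to 34.0 in NPC libraries and 19.4 to 23.4 in PBS libraries. Neutrophil markers (5 of 6) summed to 130 to 167 in NPC libraries and 98.7 to 161 in PBS libraries, and neural markers (4 of 6) to 44.7 to 76.3 in NPC libraries and 51.9 to 71.8 in PBS libraries. No marker in the table was at 0 reads in any library, and none had an adjusted p under 0.05 in limma. The part of these cells in the member values was not tested.

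**Figure D4:**
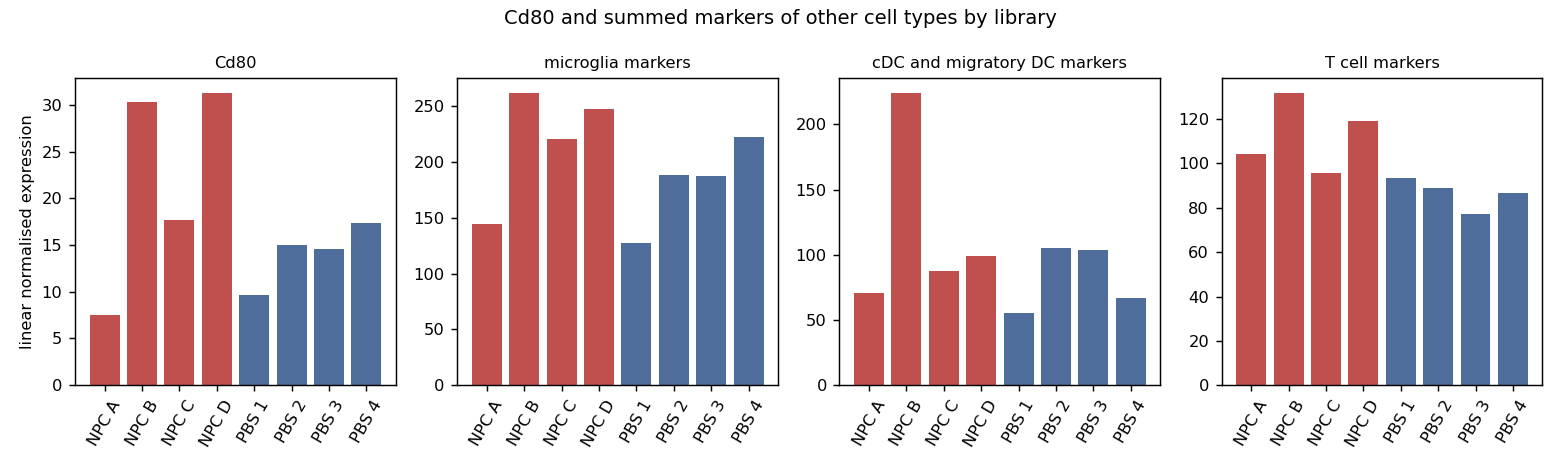
Linear normalised expression of Cd80 and the summed linear values of microglia, conventional and migratory dendritic cell, and T cell markers, as bars from 0 for NPC A to D (red) and PBS 1 to 4 (blue). NPC A and PBS 1 are the lowest bars of their groups for Cd80, for microglia and for dendritic cell markers, while the T cell sums run from 95.7 to 132 in NPC libraries and from 77.0 to 93.3 in PBS libraries.

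Of 11 listed receptors and ligands known chiefly from T cells, which pair with the members or with related molecules, 10 were in the table. Of these, 8 had a log2 fold change above 0 and 2 below, with a median of 0.20 against 0.02 over all genes, and none had an unadjusted p under 0.05 in limma. Ctla4, the inhibitory receptor of CD80 and CD86, was at 3.80, 4.98, 3.92 and 4.59 log2 units in NPC A to D, against 3.38, 4.04, 3.93 and 4.00 in PBS 1 to 4. NPC B and D were above all PBS libraries, and the log2 fold change was 0.48 (SE 0.25, limma adjusted p = 0.497). Cd28 had a log2 fold change of 0.19, Icos of 0.12, Cd2 of 0.19, Tigit of 0.44, Cd226 of 0.44, Tnfrsf4 of 0.21, Tnfrsf9 of 0.28, Cd27 of -0.05 and Cd40lg of -0.11, the last on 1 to 23 reads in NPC libraries and 15 to 28 in PBS libraries. These stood beside T cell marker sums that were higher in every NPC library. Without NPC A and PBS 1 all 10 partners were above 0, with a median of 0.41. In that fit the median of the 12 T cell markers was 0.20, with 10 above 0 and 2 below, against 0.30 over all libraries. The part of T cells in the partner values was not tested.

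Other ligands and receptors by which antigen-presenting cells stimulate or inhibit T cells numbered 29 in the table, of 37 listed. Of these, 21 had a log2 fold change above 0 and 8 below, with a median of 0.13, and 2 had an unadjusted p under 0.05 in limma, 1 in each direction. At that level 6.00% of all genes were higher and 5.32% lower in NPC libraries. Tnfsf8, the ligand of CD30, was at 2.33, 2.50, 2.65 and 2.25 log2 units in NPC A to D, against 1.56, 1.72, 1.89 and 2.16 in PBS 1 to 4. Every NPC library was above every PBS library, as for 3.53% of all genes. The log2 fold change was 0.60 (SE 0.22, limma unadjusted p = 0.0176, adjusted p = 0.390), on 14 to 31 reads in NPC libraries and 34 to 64 in PBS libraries. At so few reads the fixed offset of 0.5 reads weighs more in the shallower NPC libraries.

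Vsir, the gene of the inhibitory protein VISTA, is listed as 4632428N05Rik. It was at 7.36, 7.65, 7.14 and 7.03 log2 units in NPC A to D, against 7.62, 7.61, 7.62 and 7.61 in PBS 1 to 4. The 4 PBS libraries were nearly equal, and NPC B was above them while the other NPC libraries were below. The log2 fold change was -0.32 (SE 0.13, limma unadjusted p = 0.0331, adjusted p = 0.413). Lilrb4, an inhibitory receptor of myeloid cells with a closely similar paralog, so that its reads are uncertain, had a log2 fold change of 0.32 (SE 0.16, limma adjusted p = 0.487).

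Genes that act up- and downstream of the members did not pass the test either. All 17 genes of CD40 signalling were in the table, 11 with a log2 fold change above 0 and 6 below, with a median of 0.03, and 8 above and 9 below after thinning. Among them the NF-kappaB subunit genes Rel, Nfkb1 and Nfkb2 were at 0.41 (SE 0.23, limma adjusted p = 0.529), 0.17 (SE 0.11, limma adjusted p = 0.567) and -0.25 (SE 0.15, limma adjusted p = 0.549). Birc3, an inhibitor of apoptosis named here after its values were seen, was the only gene of that list with every NPC library above every PBS library, at 7.56 to 7.82 in NPC libraries and 7.34 to 7.54 in PBS libraries (log2 fold change 0.16, SE 0.11, limma adjusted p = 0.612). Such a separation was found for 3.53% of all genes. All 13 genes of the interferon-gamma and JAK-STAT route, a known inducer of Cd274, were in the table, 8 above 0 and 5 below, with a median of 0.04, and 6 above and 7 below under quantile normalization. There Ifngr2, a chain of the interferon-gamma receptor, was at -0.16 (SE 0.10, limma adjusted p = 0.584), with every NPC library below every PBS library, as for 3.25% of all genes. Irf1, a transcription factor induced by interferon, was at -0.31 (SE 0.21, limma adjusted p = 0.603), and Il4ra, a chain of the interleukin-4 receptor, at -0.30 (SE 0.15, limma adjusted p = 0.487). Il4ra was lowest in NPC A (6.06) and highest in PBS 1 (7.04). It was at 6.38 to 6.61 in NPC B to D and 6.58 to 6.59 in PBS 2 to 4. Irf1 was highest in PBS 1 (8.31), and NPC A (7.67) was the highest of the NPC libraries. Without NPC A and PBS 1 the list had 9 genes above 0 and 4 below, with a median of 0.09.

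All 7 ligands and partners of Tim-3 were in the table, 5 with a log2 fold change above 0 and 2 below, with a median of 0.07, and 4 above and 3 below after GC and length correction. The ligands Lgals9 (galectin-9) and Ceacam1 were at 0.26 (SE 0.20, limma adjusted p = 0.648) and 0.25 (SE 0.25, limma adjusted p = 0.737). Bag6, whose protein binds the Tim-3 tail in T cells, was at -0.28 (SE 0.14, limma adjusted p = 0.487). Of genes that govern the surface turnover of CD80, CD86 and PD-L1, 6 of 7 were in the table, 1 above 0 and 5 below, with a median of -0.12, and 2 above and 4 below after thinning. Cmtm6, which stabilises PD-L1 at the surface, was at -0.13 (SE 0.13, limma adjusted p = 0.749). March1, a ubiquitin ligase that lowers surface CD86, was at 0.21 (SE 0.15, limma adjusted p = 0.615). Hip1r, an endocytic adaptor, had 1 to 6 reads in NPC libraries and 6 to 31 in PBS libraries, too few to compare. No gene of any of these lists had an adjusted p under 0.05 in limma.

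**Figure D5:**
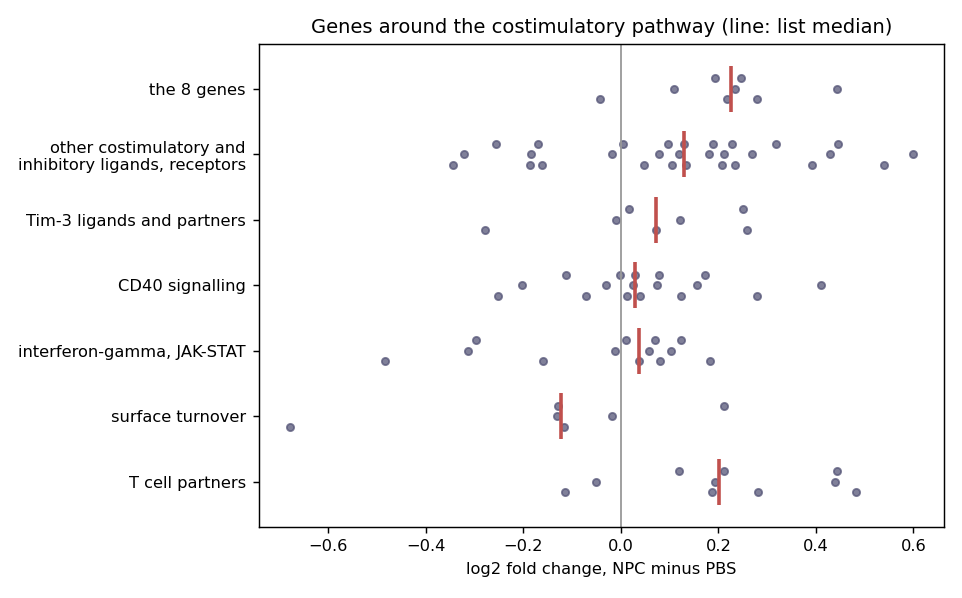
Log2 fold change, NPC minus PBS, of each measured gene in the list of 8 and in 6 lists around it, with points spread vertically for sight only; the red line is the list's median and the grey line marks 0. Medians run from -0.12 for surface turnover to 0.23 for the 8 genes, and each list has genes on both sides of 0.

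The members did not share a single profile over the libraries. Deviations from the gene mean had the same sign in 7 of 8 libraries for Cd48 and Havcr2 and for Cd80 and Havcr2. They had the same sign in 1 of 8 libraries for Cd40 and Cd274, for Cd40 and Cd80 and for Pdcd1lg2 and Cd48. Cd80 and Cd86 had the same sign in 6 of 8, and Cd274 and Pdcd1lg2 in 5 of 8. Some of these signs rest on deviations within counting error. Those of Havcr2 were -0.005 in PBS 3 and 0.010 in PBS 4, and that of Cd48 was -0.016 in NPC A.

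The genes most like each member were taken from 7696 genes with a mean log2 level of at least 3, by the root mean square difference of mean-centred values over the 8 libraries. For Cd80, whose own root mean square deviation was 0.67, they were Cytip at 0.19 and P2ry12, a defining microglia marker, at 0.21. For Cd86 they were Hspa4l at 0.12 and Nfkbie at 0.13, for Cd274 Atxn2l at 0.05 and Il7r at 0.08, and for Pdcd1lg2 Depdc5 and Evl at 0.06 each. For Icosl they were Raph1 at 0.05 and Gtf3c2 at 0.06, and for Cd40 Edc3 at 0.07 and Chchd1 at 0.09. For Cd48 they were Ppp4r2 at 0.06 and Lyz1 at 0.07, where Lyz1 has a near-identical paralog and its reads are uncertain. For Havcr2 they were Pgm2l1 at 0.06 and Anp32-ps at 0.07. These are the closest of 7696 candidates over 8 libraries that share depth and sorting, and are given as descriptions.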

How the data were processed

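Sequencing libraries of amplified cDNA from sorted moDCs were read as 150-base single ends, per the labels' protocols. Per the submitters' processing notes, Trimmomatic, STAR 2.3.0, HTSeq 0.5.3 and limma were used with mm10; the annotation and the strand setting of the counting are not stated there. Reads of genes that overlap, on either strand, may therefore be mixed. The table deposited by the authors holds log2 normalised values of 12256 genes, with 1 column per library and no division by gene length. Its linear values are (whole reads + 0.5) times 1 step per library, and 100% came out whole within 0.01, so reads per gene and depth were recovered from them. The median gene had 37 to 93 reads in NPC and 129 to 281 in PBS libraries. The offset raises low genes more in the shallower NPC libraries.

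Each gene was tested on the deposited log2 values with limma 3.58.1 in R 4.3.3 (treatment alone in the model, variance moderation with a trend, two-sided, threshold 0.05 after Benjamini-Hochberg adjustment over the table); the code was tested on simulated data. Within-library differences were compared by exact permutation. Lengths and coordinates came from GENCODE vM21 by symbol (11368 of 12256 matched 1 gene). Labels NPC A to D and PBS 1 to 4 pair nothing. Alternatives were other variance models, scalings, low-value filters, a pseudocount of 1, voom weights, thinning, and libraries left out; correction for GC content and length was added after seeing the data. The members and lists were chosen with earlier results of these data known. Named genes were all members, all T cell partners, the 3 genes of smallest unadjusted p per other list, and the 2 genes most like each member; Fos was named for the library pattern. The immediate-early list gave 4 genes above 0 and 14 below, with 0 adjusted calls. Intervals from reads cover counting error only, since PCR duplicates cannot be removed.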

Additional observations from a re-analysis of the deposited data

Results flagged for a closer look

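Havcr2 in NPC A and Havcr2 in PBS 1 each lay far from the other 3 libraries of the group. In NPC A it was at 6.76 log2 units, against 7.13 to 7.21 in NPC B to D, and the gap to the nearest was 0.837 of the group's range. In PBS 1 it was at 6.31, against 6.93 to 7.00 in PBS 2 to 4, a gap of 0.902 of the range. Both ratios exceed Dixon's 95% critical value for 4 samples. In all, 16 groups (8 genes in 2 treatments) were examined and 2 were flagged, where chance flags about 1 in 20. The same libraries stood apart on the first principal component over all genes and in the immediate-early genes; the part of that in Havcr2 was not tested.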

How the results depend on the processing

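No gene of the table passed the adjusted threshold in limma under any of the 20 alternatives. Genes at an unadjusted p under 0.05 numbered 1387 as reported, 2139 with library weights and 792 to 1846 with 1 library left out, lowest without PBS 2. Of 160 member values, 155 kept their direction and their side of the threshold, and the lowest adjusted p was 0.263 (limma with library weights, Cd274). The sign turned for Cd40 (0.028 without PBS 1 and NPC A, 0.015 without NPC D, and -0.20 to 0.059 with 1 library left out, highest without PBS 1) and for Cd48 (-0.039 with library weights, and -0.022 without PBS 1 to 0.21 without NPC C). With 1 library left out, Cd86 minus Cd80 ran from -0.49 to 0.043, above 0 only without NPC B, and Cd274 minus Pdcd1lg2 from -0.19 (without NPC D) to 0.19, with -0.050 without PBS 1; the cause was not tested. Correction for GC content and length gave a median of 0.22 for the 8 genes and 990 genes at an unadjusted p under 0.05. The planned count-based tests were not run, since the deposited unit is log2. No paired analysis was possible because the groups share no replicate labels. Cd80 and Pdcd1lg2, with under 100 reads in several NPC libraries, are the members that depth limits most.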

Other observations

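Genes of the lists outside the 8 members carried the library pattern of NPC A and PBS 1 in both directions; these were chosen after their values were seen. Cd83, a maturation marker of dendritic cells, was at 5.03, 7.32, 6.10 and 6.83 log2 units in NPC A to D, against 4.29, 6.84, 6.72 and 6.89 in PBS 1 to 4. It was lowest in NPC A and PBS 1 and had a log2 fold change of 0.13 between the groups (SE 0.57, limma adjusted p = 0.951). Tnfaip3, a feedback inhibitor of NF-kappaB signalling, was at 8.37, 10.15, 9.37 and 10.25 in NPC A to D, against 8.15, 9.93, 9.70 and 10.24 in PBS 1 to 4, again lowest in NPC A and PBS 1. Irf1 and Socs1, both induced by interferon-gamma, were highest in NPC A and PBS 1 within their groups. Irf1 was at 7.67, 7.33, 7.39 and 6.97 in NPC A to D, against 8.31, 7.59, 7.51 and 7.21 in PBS 1 to 4. Socs1 was at 2.81, 1.35, 2.11 and 0.92 in NPC A to D, on as few as 6 reads, against 4.02, 1.81, 1.85 and 1.44 in PBS 1 to 4. Sirpa, the receptor of CD47 on myeloid cells, was at 9.22, 9.15, 9.11 and 9.13 in NPC A to D, against 9.38, 9.34, 9.26 and 9.27 in PBS 1 to 4. Every NPC library was below every PBS library, as for 3.25% of all genes, with a log2 fold change of -0.16 (SE 0.11, limma adjusted p = 0.599).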
